A study of Mus musculus with 17 samples.

Results

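The cells described here are proximal tubule cells of the convoluted segments of the mouse kidney, taken from droplet-based single-cell RNA sequencing of 9 kidney libraries. A cell was kept with at least 200 genes and at most 30% of its unique molecular identifiers (UMIs, each 1 captured transcript) from mitochondrially encoded genes. Membership was chosen by UMIs of 9 genes: a kept cell entered the class with at least 3 UMIs of Slc34a1 and Lrp2 together, at least 1 UMI of Slc5a2 and Slc5a12 together and more of these than of Slc7a13 and Cyp7b1 together. It also needed 0 UMIs of Ptprc and of Slc12a1 and at most 1 of Aqp2. The rule found 11079 cells of 68159 kept kidney cells and of 98780 kept cells in the whole series of 17 skin and kidney libraries.

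All mice carried PDGFRb-Cre and the Z/EG reporter, in which Cre switches on green fluorescent protein (GFP), and were 8 weeks old. SARATg mice also carried a transgene for SARA, the protein of Zfyve9, switched on by the same Cre, and mice without it are called SARAWT. Aristolochic acid (AA), a plant nephrotoxin that forms DNA adducts, was injected into the peritoneum at 5 mg/kg 3 times a week for 3 weeks to induce kidney fibrosis, and control mice received vehicle. GFP-positive cells were sorted from the digested kidney before the libraries were made. There were 3 SARAWT vehicle, 3 SARAWT AA and 2 SARATg vehicle libraries and 1 SARATg AA library, and the labels do not say that each came from a separate animal, so p-values measure the spread between these libraries. Tubule cells are not the cells in which PDGFRb-Cre is meant to act: Pdgfrb, the gene of the driver, stood at 0 to 1.35 CPM (UMIs per 1000000 UMIs of the class in that library). Shares of cells given here are shares of what the sort let through.

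The proximal tubule takes back most of what the glomerulus filters. In its convoluted segments, apical cotransporters driven by the sodium gradient recover glucose, phosphate and amino acids, and the receptors megalin and cubilin take up filtered protein. The straight S3 segment that follows carries a different set of transporters and enzymes. Organic anion transporters on the blood side also bring AA into these cells, and the proximal tubule is the known site of its toxicity. DNA damage stabilizes the transcription factor p53, which raises genes that stop the cell cycle, among them Cdkn1a.

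In the comparison of AA with vehicle described below, edgeR called no member of any list with the libraries as labelled (DESeq2 called Plk2 of the p53 targets and S100a8 of the leukocyte markers), and p53 targets and genes of antigen presentation and interferon response had the most called members of the lists used in the edgeR fit without the library labelled SARAWT vehicle 3, chosen after the data were seen, so upstream sequence of some of their members is shown first. Sequences are RefSeq promoters on GRCm38.p6, and the 250 bases before each start site were searched on both strands. The pattern GAAANNGAAA, the core of the interferon-stimulated response element, was present for 7 of the 22 genes of the antigen presentation and interferon list that had a promoter entry (31.8%), of 29 members in all, and for 3.46% of all 27025 genes. The paired p53 core CATGNNNNNNCATG was present for 1 of 23 matched p53 target genes, Cdkn1a, for 1 of the 22 antigen presentation and interferon genes, Psmb10, and for 0.57% of all genes. The pattern TTCNNNGAA, the interferon gamma-activated sequence, was present for 3 of the 22 genes (13.6%), 3 of 11 genes of endocytic receptors and adaptors (27.3%) and 8.13% of all genes, and CCAAT for 14 of them (63.6%) and 37.5% of all genes. A match describes letters only. The matches to GAAANNGAAA overlap each other in Bst2 and Isg15. These windows show the p53 match and 4 of the 7 interferon matches, of genes with different roles. Capitals mark the matches in the following windows, printed from 5′ to 3′ on the strand of the gene, with the reverse complement capitalized where the match lies on the other strand.
Cdkn1a, chr17:29090886-29090978, plus strand: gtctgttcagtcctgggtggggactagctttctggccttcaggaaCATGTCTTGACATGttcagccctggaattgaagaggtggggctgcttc
B2m, chr2:122147503-122147602, plus strand: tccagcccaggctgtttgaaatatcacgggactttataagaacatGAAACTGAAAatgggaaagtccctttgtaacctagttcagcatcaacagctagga
Gbp2, chr3:142620559-142620658, plus strand: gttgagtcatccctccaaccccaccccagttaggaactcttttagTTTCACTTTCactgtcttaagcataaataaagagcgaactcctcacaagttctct
Bst2, chr8:71537542-71537647, minus strand: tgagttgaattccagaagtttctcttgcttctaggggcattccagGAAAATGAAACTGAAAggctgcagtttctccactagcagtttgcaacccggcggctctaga
Isg15, chr4:156200830-156200941, minus strand: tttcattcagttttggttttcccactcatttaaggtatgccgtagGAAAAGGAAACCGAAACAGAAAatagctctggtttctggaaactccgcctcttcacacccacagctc

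Libraries that stood apart or went against their labels are given before the results. Mouse Zfyve9 (chromosome 4, GRCm38) is the mouse counterpart of the human transgene. In the class it stood at 28.1, 31.8 and 19.1 CPM in SARAWT vehicle 1 to 3, 106 and 80.3 CPM in SARATg vehicle 1 and 2, 294, 19.3 and 18.1 CPM in SARAWT AA 1 to 3 and 21.7 CPM in SARATg AA 1. The library labelled SARAWT AA 1 was therefore the highest of all, above both SARATg vehicle libraries, and the library labelled SARATg AA 1 lay within the range of the other SARAWT libraries. The library labelled SARAWT vehicle 3 stood apart from SARAWT vehicle 1 and 2. The correlation of its log2 CPM across genes was 0.968, 0.951 and 0.944 with SARAWT AA 1 to 3 but 0.925 and 0.913 with SARAWT vehicle 1 and 2. With SARATg vehicle 1 and 2 and SARATg AA 1 it was 0.932, 0.925 and 0.942. By Xist and Y-linked transcripts, SARAWT vehicle 2 and SARATg AA 1 came from females and the other 7 libraries from males, so in SARATg the treatment and the sex of the libraries cannot be told apart. Results are therefore also given without the library labelled SARAWT vehicle 3 and without it and SARAWT AA 1, both chosen after the data were seen. Since the first was singled out by the same kind of values, the fit without it gives no independent support to the pattern it shows.

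The class held 433 to 4485 cells and 4205270 to 49606522 UMIs per library, and its cells had a median of 6350 to 10476 UMIs. Their median mitochondrial share was 9.19% to 16.7%, and 1.66% to 2.13% of a library's barcodes also occurred in another kidney library. No doublet caller was run.

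The genes of the rule chose the cells and their levels are a description. Slc34a1, the main phosphate cotransporter, stood at 3397, 2638 and 3046 CPM in SARAWT vehicle 1 to 3 and 2953, 3661 and 2786 CPM in SARAWT AA 1 to 3. It reached 2831 and 1861 CPM in SARATg vehicle 1 and 2 and 3406 CPM in SARATg AA 1. Lrp2, which encodes megalin, was highest in SARAWT vehicle 1 and 2 at 1824 and 1847 CPM, and all other libraries lay between 840 and 1186 CPM. Slc5a2, the glucose cotransporter SGLT2 of the early segments, ranged from 304 to 702 CPM. Slc5a12, a lactate cotransporter, ranged from 324 to 505 CPM. Both segment genes were detected together in 62.2% to 87.4% of the cells of a library. At the edge of the rule, 16 to 580 cells per library had exactly 1 UMI of the segment genes and were inside, and 23 to 3096 cells had 0 and were outside. The largest group outside, 3096 cells, belonged to SARAWT vehicle 2.

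Genes listed as markers of other kidney cells were also detected in the class, and whether its cells made them was not tested. The thick ascending limb markers summed to 198 to 382 CPM, of which Cldn10, a claudin, took 174 to 359 CPM, and Umod, the uromodulin gene of that segment, stood at 2.12 to 21.5 CPM. Markers of the distal convoluted tubule summed to 85.0 to 186 CPM, those of the collecting duct to 26.3 to 90.3 CPM, those of mural cells and fibroblasts to 13.6 to 61.2 CPM and those of podocytes to 2.69 to 24.7 CPM. Erythrocyte markers reached 910 CPM in 1 SARATg vehicle library. The summed level of 10 endothelial markers was 11.2 to 35.9 CPM in SARAWT vehicle, 3.57 to 21.8 CPM in SARAWT AA and 65.7 to 157 CPM in SARATg vehicle, and it was 74.0 CPM in SARATg AA. The summed level of 18 leukocyte markers was 20.5 to 183 CPM in SARAWT vehicle, 139 to 332 CPM in SARAWT AA, 73.3 to 221 CPM in SARATg vehicle and 145 CPM in SARATg AA. Ptprc was at 0 by the rule. The ranges of the leukocyte sum overlapped between SARAWT vehicle and SARAWT AA through the library labelled SARAWT vehicle 3, at 183 CPM. Without it they did not overlap, with 20.5 and 51.5 CPM in SARAWT vehicle 1 and 2, and the SARATg AA value lay between those of SARATg vehicle.

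The first comparison asked whether the class took another share of the sorted kidney after AA. Convoluted cells made up 17.8%, 41.1% and 11.2% of kept cells in SARAWT vehicle 1 to 3 and 5.69%, 23% and 8.28% in SARAWT AA 1 to 3. These ranges overlapped. The mean was 23.4% ± 15.7 (SD, n = 3) with vehicle and 12.3% ± 9.33 (SD, n = 3) with AA, a difference that an exact two-sided permutation test did not set apart (p = 0.4, where 0.1 is the smallest possible). Cells with at least 1 UMI of Ptprc, the gene of the leukocyte antigen CD45, made up 12.1%, 17.2% and 72.3% of SARAWT vehicle 1 to 3 and 82.1%, 56.1% and 81.3% of SARAWT AA 1 to 3. They were not leukocytes alone by their transcripts: the 37 solute transport genes summed to 1375 to 7314 CPM in them over the 9 libraries, against 13628 to 17867 CPM in the class. Among the cells without a Ptprc UMI, convoluted cells were 36.8% ± 15.1 (SD, n = 3) with vehicle and 42.9% ± 10.4 (SD, n = 3) with AA, so the direction turned with the denominator (exact permutation p = 0.6).

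**Figure D1:**
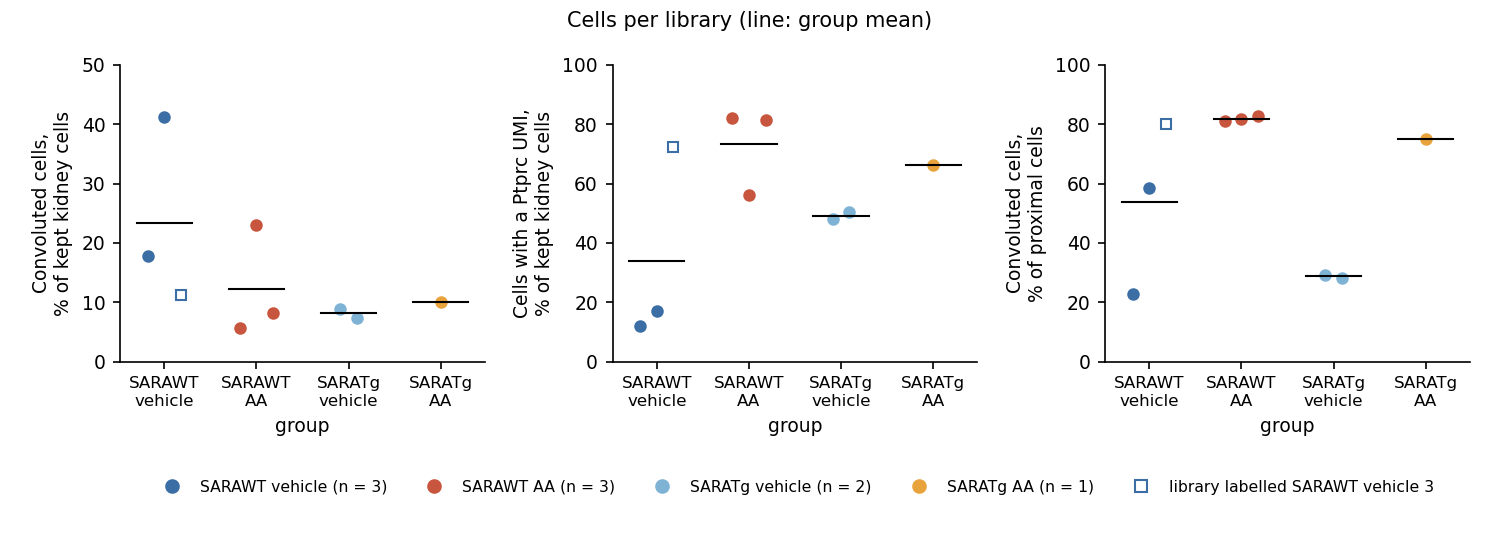
Percent of kept kidney cells in the convoluted class (left), percent of kept cells with a Ptprc UMI (middle) and percent of proximal tubule cells in the convoluted class (right), 1 point per library with the group mean as a line. The library labelled SARAWT vehicle 3 (open square) lies near the SARAWT AA libraries in the middle and right panels, and the left panel shows overlapping SARAWT groups.

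SARATg vehicle libraries held 8.97% and 7.35% convoluted cells, below all 3 SARAWT vehicle libraries. The means were 8.16% ± 1.15 (SD, n = 2) and 23.4% ± 15.7 (SD, n = 3), and the exact two-sided permutation test gave p = 0.2, where 0.1 is the smallest possible. Cells with a Ptprc UMI took 48.1% and 50.3% of the SARATg vehicle libraries. The SARATg AA library held 10.0% convoluted cells. Of the proximal tubule cells alone, 22.8%, 58.4% and 79.9% were convoluted in SARAWT vehicle 1 to 3, 81.1% to 82.6% in SARAWT AA, 29.3% and 28.2% in SARATg vehicle and 75.2% in SARATg AA. The remainder in SARAWT vehicle 1 and in both SARATg vehicle libraries was mostly S3, with 5965, 1255 and 930 cells, whereas the other 6 libraries held 3 to 176 S3 cells. The female SARAWT vehicle 2 and SARATg AA 1 had the lowest S3 shares, 1.24% and 0.291% of proximal cells. They also held 3097 and 253 proximal cells that were neither or tied, and the part of sex was not tested.

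The second comparison asked which genes changed in convoluted cells of SARAWT mice after AA. With all libraries as labelled, edgeR's quasi-likelihood test on the class sums called 0 of 13287 genes at an adjusted p of 0.05 (0% of genes tested). At an unadjusted p under 0.05 it found 988 genes (7.44%), and DESeq2 called 16 (0.12%). Without the library labelled SARAWT vehicle 3, 290 of 13166 genes passed (2.2%), 244 higher with AA (1.85%) and 46 lower (0.349%). Without it and SARAWT AA 1, 162 genes passed (1.23%), 151 higher (1.15%) and 11 lower (0.0839%). In the library labelled SARAWT vehicle 3, 243 of the 244 higher genes lay above both other SARAWT vehicle libraries, and 156 lay within the range of SARAWT AA. These genes were chosen for low values in SARAWT vehicle 1 and 2, and the libraries outside SARAWT also lay above both for most of them, at 210 and 201 genes in SARATg vehicle 1 and 2 and 237 in SARATg AA 1, of which 18, 24 and 110 genes lay within the range of SARAWT AA. All genes and folds below that are said to have passed did so in the fit without that library, and were chosen after that fit was seen.

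None of the 37 solute transport genes, which serve the recovery of the filtrate, passed in either direction, as labelled or without the library labelled SARAWT vehicle 3, where the list had a median log2 fold change of 0.11 and all genes had one of 0.00493. With 2.2% of all genes called, a count of 0 among 37 is near the share over all genes. The rule itself required UMIs of Slc34a1 or Lrp2 and of Slc5a2 or Slc5a12. Any cell that had lost these transcripts was outside the class, so the counts of transport and endocytic genes do not cover it. Slc4a4, which carries bicarbonate to the blood, stood at 1284, 1335 and 1674 CPM in SARAWT vehicle 1 to 3 and 1814, 1424 and 2039 CPM in SARAWT AA 1 to 3. Slc2a2, the glucose exit transporter, stood at 155, 202 and 177 CPM against 216, 255 and 223 CPM, which did not overlap but differed by 0.32 ± 0.20 (log2, SE) with an edgeR adjusted p of 0.651. Slc6a19, the main neutral amino acid transporter, overlapped at 299, 189 and 402 CPM against 381, 290 and 287 CPM. Of the 11 endocytic genes 0 passed, and Cubn, which encodes cubilin, stood at 201, 260 and 178 CPM against 186, 211 and 227 CPM. Over all 9 libraries the highest value of a solute transport gene was 2.12 times its lowest in the median, against 1.737 times for all genes of at least 20 CPM on average.

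**Figure D2:**
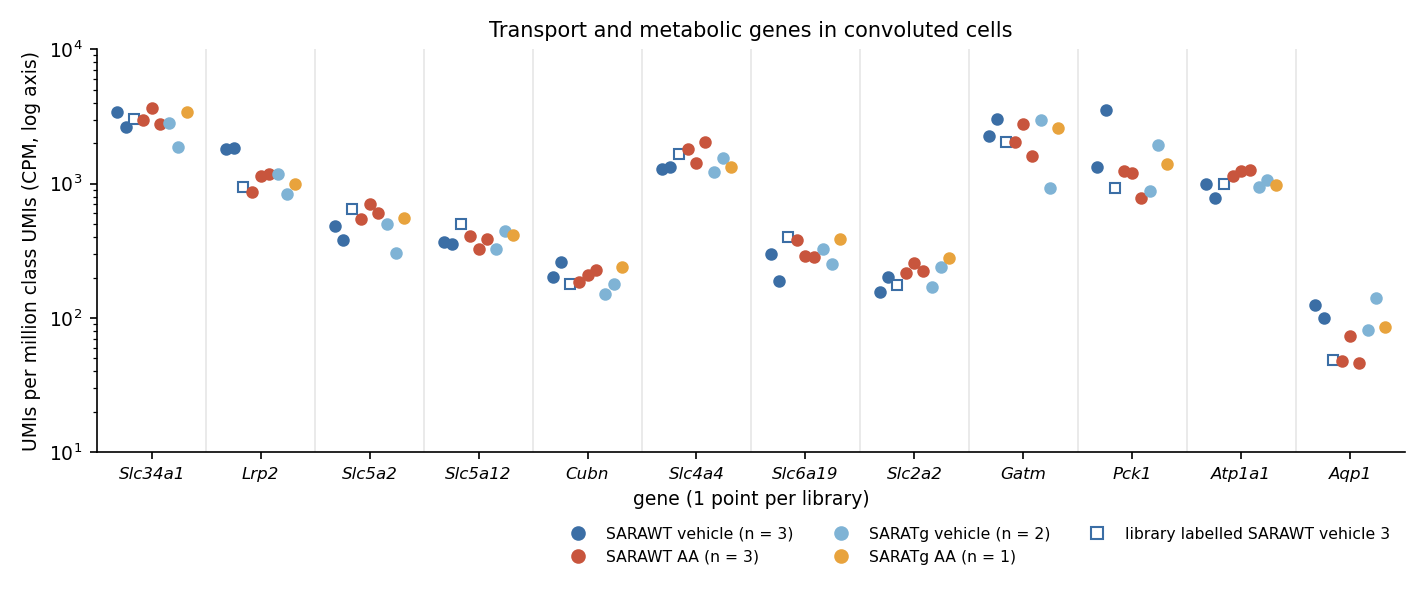
CPM of 12 transport and metabolic genes in convoluted cells on a log axis, 1 point per library, colored by group, with the library labelled SARAWT vehicle 3 as an open square. Slc34a1 stays between 1861 and 3661 CPM, whereas Lrp2 and Aqp1 are highest in vehicle libraries. Slc34a1, Lrp2, Slc5a2 and Slc5a12 are genes of the rule that chose the cells, so their levels are a description.

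Of 18 tested genes that bring AA into the cell or turn it over 0 passed, also near the share over all genes. Without the library labelled SARAWT vehicle 3 their median log2 fold change was −0.63, with 6 of 18 positive, and 1 was higher and 4 lower at an unadjusted p under 0.05, as 20.7% of all genes were in either direction. Slc22a6, the organic anion transporter OAT1, stood at 525, 230 and 130 CPM in SARAWT vehicle 1 to 3 and 169, 274 and 131 CPM in SARAWT AA 1 to 3. Slc22a8, the related OAT3, stood at 338, 352 and 154 CPM against 85.7, 229 and 45.9 CPM. Both spanned a wide range within each group. Nqo1, a reductase that activates AA, was low at 9.15 to 23.2 CPM in all 9 libraries, and Cyp1a2 had no UMI in the class.

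Among the p53 targets, Cdkn1a (ENSMUSG00000023067, chromosome 17 from 29090976 to 29100727), the cell cycle inhibitor p21, stood at 5.2 and 6.29 CPM in SARAWT vehicle 1 and 2 and at 351 CPM in the library labelled SARAWT vehicle 3. SARAWT AA 1 to 3 held 289, 204 and 268 CPM. The 2 former libraries lay far below the AA libraries, and the third lay above them. The log2 fold change was 0.94 ± 1.35 (SE, edgeR adjusted p = 0.832) as labelled and 5.40 ± 0.43 (SE, adjusted p = 0.00277) without that library. After thinning each cell to 1000 UMIs, 0.357% and 0.558% of class cells in SARAWT vehicle 1 and 2 held a Cdkn1a UMI, against 23.6% in the library labelled SARAWT vehicle 3 and 20.6%, 12.6% and 19.0% in SARAWT AA 1 to 3. Over the 9 libraries, cells with a Ptprc UMI held one in 2.21% to 6.47% after the same thinning, which was above both former vehicle libraries and below the other 4 SARAWT libraries. Unthinned, the class shares ran from 3.88% to 69.8% and those of Ptprc-positive cells from 8.83% to 22.1%. Thinning left out 0 to 5 class cells per library.

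Of 32 p53 targets, 13 were higher and 0 lower without the library labelled SARAWT vehicle 3 (as labelled, 0 and 0 in edgeR and Plk2 alone in DESeq2), against 1.85% of all genes higher in that fit, with a median log2 fold change of 1.16. Phlda3, a repressor of Akt, stood at 0.772 and 1.37 CPM in SARAWT vehicle 1 and 2, at 28.4 CPM in the library labelled SARAWT vehicle 3 and at 20.3, 40.3 and 53.7 CPM in SARAWT AA 1 to 3. Ccng1, which encodes cyclin G1, stood at 86.6, 82.7 and 269 CPM against 215, 311 and 336 CPM. Mdm2, the ubiquitin ligase that removes p53, stood at 43.8, 32.0 and 83.4 CPM against 75.1, 82.6 and 97.5 CPM. Each of these genes had the library labelled SARAWT vehicle 3 within or next to the AA range. Their log2 fold changes without it were 5.04 ± 0.49 for Phlda3, 1.72 ± 0.27 for Ccng1 and 1.12 ± 0.22 for Mdm2 (SE, edgeR adjusted p 0.00614, 0.0244 and 0.0479). Mdm2 no longer passed without SARAWT AA 1 as well.

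Some targets put that library between the other vehicle libraries and AA. Gdf15, a stress cytokine, stood at 27.3, 18.8 and 84.1 CPM in SARAWT vehicle 1 to 3 and 151, 168 and 169 CPM in SARAWT AA 1 to 3, so the groups did not overlap. Plk2, a kinase raised by p53, stood at 0.515, 1.05 and 5.60 CPM against 13.1, 17.6 and 27.6 CPM and did not overlap either. Across all genes 8.1% were higher in all AA libraries without overlap. As labelled, the edgeR log2 fold changes were 1.82 ± 0.57 for Gdf15 and 3.05 ± 0.80 for Plk2 (SE, adjusted p 0.622 for both), and DESeq2 called Plk2. The transcript of p53 itself, Trp53, overlapped at 35.5, 30.1 and 27.9 CPM against 45.9, 26.1 and 39.0 CPM, and the repair genes Xpc and Ddb2 also overlapped.

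**Figure D3:**
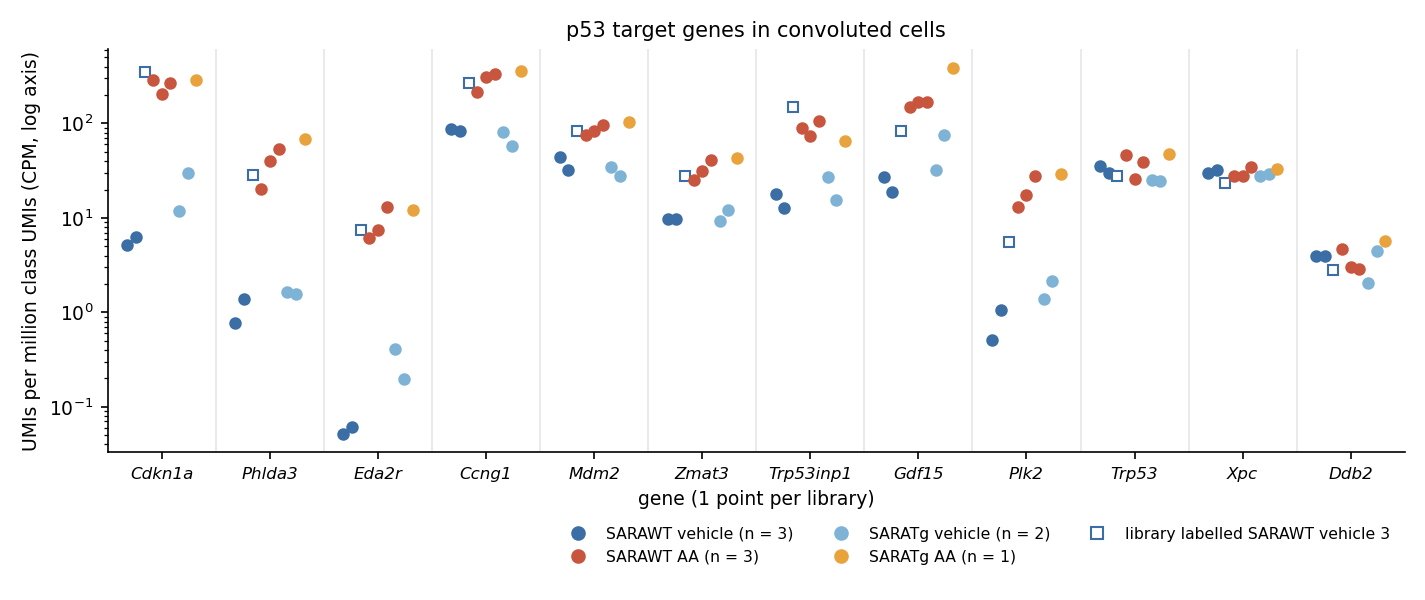
CPM of 12 genes of the p53 list in convoluted cells on a log axis, 1 point per library. SARAWT vehicle 1 and 2 and both SARATg vehicle libraries lie lowest for Cdkn1a, Phlda3 and Plk2, the library labelled SARAWT vehicle 3 (open square) lies with the AA libraries for most of them, and Trp53, Xpc and Ddb2 show no such split.

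Genes of antigen presentation (MHC class I and II) and interferon response had more called members than any other list used. Of 29 tested, 25 were higher and 0 lower without the library labelled SARAWT vehicle 3, with a median log2 fold change of 3.54. In that fit 1.85% of all genes were higher, and the median over all genes was 0.00493. As labelled the counts were 0 and 0 and the median was 1.35. B2m, the light chain of MHC class I, stood at 180 and 197 CPM in SARAWT vehicle 1 and 2, 1095 CPM in the library labelled SARAWT vehicle 3 and 1246, 790 and 1799 CPM in SARAWT AA 1 to 3. Psmb8, a subunit of the immunoproteasome, stood at 3.76, 2.22 and 125 CPM against 161, 87.0 and 249 CPM. Gbp2, a guanylate-binding protein raised by interferon, stood at 0.669, 0.383 and 60.5 CPM against 63.1, 32.7 and 107 CPM. For all of them, SARAWT vehicle 1 and 2 lay below all other SARAWT libraries. The log2 fold changes without the third vehicle library were 2.69 ± 0.34, 5.74 ± 0.50 and 7.0 ± 0.73 (SE, edgeR adjusted p 0.0114, 0.00388 and 0.00643).

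The class II genes and their invariant chain Cd74 were higher as well. Cd74 stood at 56.3, 34.3 and 2043 CPM in SARAWT vehicle 1 to 3 and 2414, 1265 and 3404 CPM in SARAWT AA 1 to 3, with a log2 fold change of 5.63 ± 0.59 (SE, adjusted p = 0.00643) without the library labelled SARAWT vehicle 3. These genes are also abundant in leukocytes, and the part of leukocyte RNA in their level was not tested. Most leukocyte markers moved in the same direction in that fit. Of 17 tested, 7 were higher and 0 lower, against 1.85% of all genes higher, and 15 of 17 had a positive fold. S100a8 of neutrophils went the other way, at 0.772, 12.6 and 19.0 CPM in SARAWT vehicle 1 to 3 and 0.193, 1.05 and 0.476 CPM in SARAWT AA 1 to 3. Tyrobp, an adaptor of myeloid cells, stood at 2.16, 3.04 and 11.5 CPM against 13.1, 11.6 and 21.2 CPM, and Lyz2, the lysozyme of macrophages, at 4.69, 5.16 and 57.1 CPM against 58.1, 57.9 and 134 CPM.

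The class was therefore set beside the Ptprc-positive cells of the same library, which also held tubule transcripts in amounts that differed between libraries, so these percentages do not measure a share of leukocyte RNA. Tyrobp in the class was 0.206% to 0.699% of its level in those cells in SARAWT vehicle and 0.772% to 2.09% in SARAWT AA. Lyz2 was 0.149% to 0.572% and 0.562% to 1.85%. Cd74 reached 0.551%, 0.360% and 12.9% of that level in SARAWT vehicle 1 to 3 and 18.1%, 25.0% and 53.2% in SARAWT AA 1 to 3, and B2m reached 17.5% to 47.1% and 40.9% to 80.6%. Other leukocyte genes reached higher percentages than Tyrobp in some SARAWT libraries, up to 4.73% for Cd79a of B cells, 2.91% for S100a8 of neutrophils, 7.35% for Igkc and 9.59% for Jchain. After thinning to 1000 UMIs, a Cd74 UMI was found in 71.6%, 44.4% and 86.0% of class cells of SARAWT AA 1 to 3 while their Ptprc-positive cells held one in 39.6%, 28.7% and 35.8%. In SARAWT vehicle 1 and 2 it was found in 3.98% and 2.79% of class cells, and their Ptprc-positive cells held one in 52.0% and 41.4%. The library labelled SARAWT vehicle 3 had the order of SARAWT AA, at 60.3% against 44.7%. SARATg AA 1 did not, at 22.3% against 55.5%, nor did SARATg vehicle 1 and 2, at 10.9% and 16.8% against 58.9% and 46.3%. Unthinned, 16.4% to 97.6% of class cells held one over the 9 libraries.

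**Figure D4:**
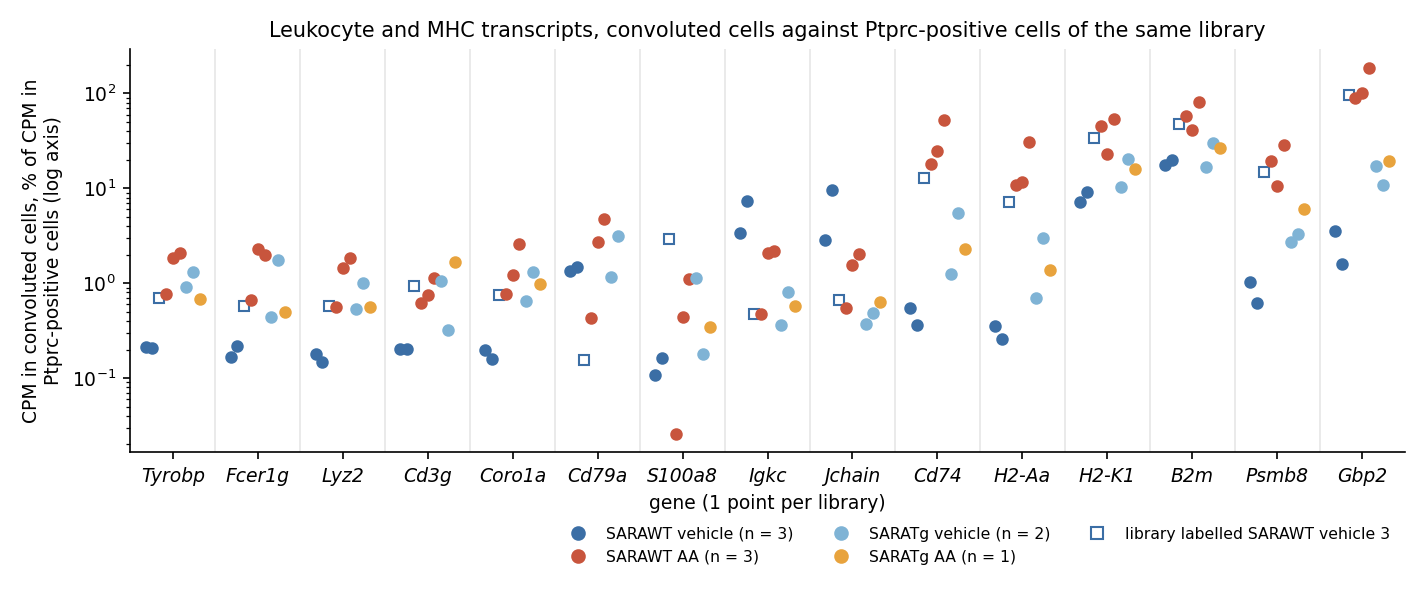
CPM of each gene in convoluted cells as a percent of its CPM in Ptprc-positive cells of the same library, on a log axis, 1 point per library. Among the 9 leukocyte genes at the left, Jchain reaches 9.59%, Igkc 7.35%, Cd79a 4.73% and S100a8 2.91%, and the other 5 reach at most 2.62%; Cd74 reaches 53.2% and B2m 80.6% in SARAWT AA, and the 1 value of 0 (Cd79a in SARATg AA) has no point on the log axis.

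Of 40 tested genes that mark injured tubule, 11 were higher and 0 lower without the library labelled SARAWT vehicle 3 (0 and 0 as labelled), against 1.85% of all genes higher, with a median log2 fold change of 3.07. Without SARAWT AA 1 as well, 6 of 39 were higher and 0 lower, against 1.15% of all genes higher, with a median of 2.08. Vcam1, an adhesion molecule, stood at 1.91, 1.23 and 54.6 CPM in SARAWT vehicle 1 to 3 and 110, 20.0 and 79.2 CPM in SARAWT AA 1 to 3. Sox9, a transcription factor of repairing tubule, stood at 0.463, 0.0806 and 43.5 CPM against 58.5, 12.1 and 25.0 CPM. C3, the central complement component, stood at 5.92, 6.73 and 184 CPM against 423, 116 and 1011 CPM. The spread within the AA group was wide for all of these. The edgeR adjusted p without that library was 0.0152 for Vcam1, 0.0305 for Sox9 and 0.0335 for C3, and without SARAWT AA 1 as well it was 0.0262, 0.0565 and 0.0612, so the latter pair no longer passed. Havcr1, which encodes KIM-1, stood at 1.13, 1.43 and 10.7 CPM against 20.1, 7.96 and 9.27 CPM and did not pass (log2 3.19 ± 0.74, SE, edgeR adjusted p = 0.0694). Krt8, a keratin, overlapped at 90.1, 89.1 and 121 CPM against 184, 76.8 and 147 CPM.

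**Figure D5:**
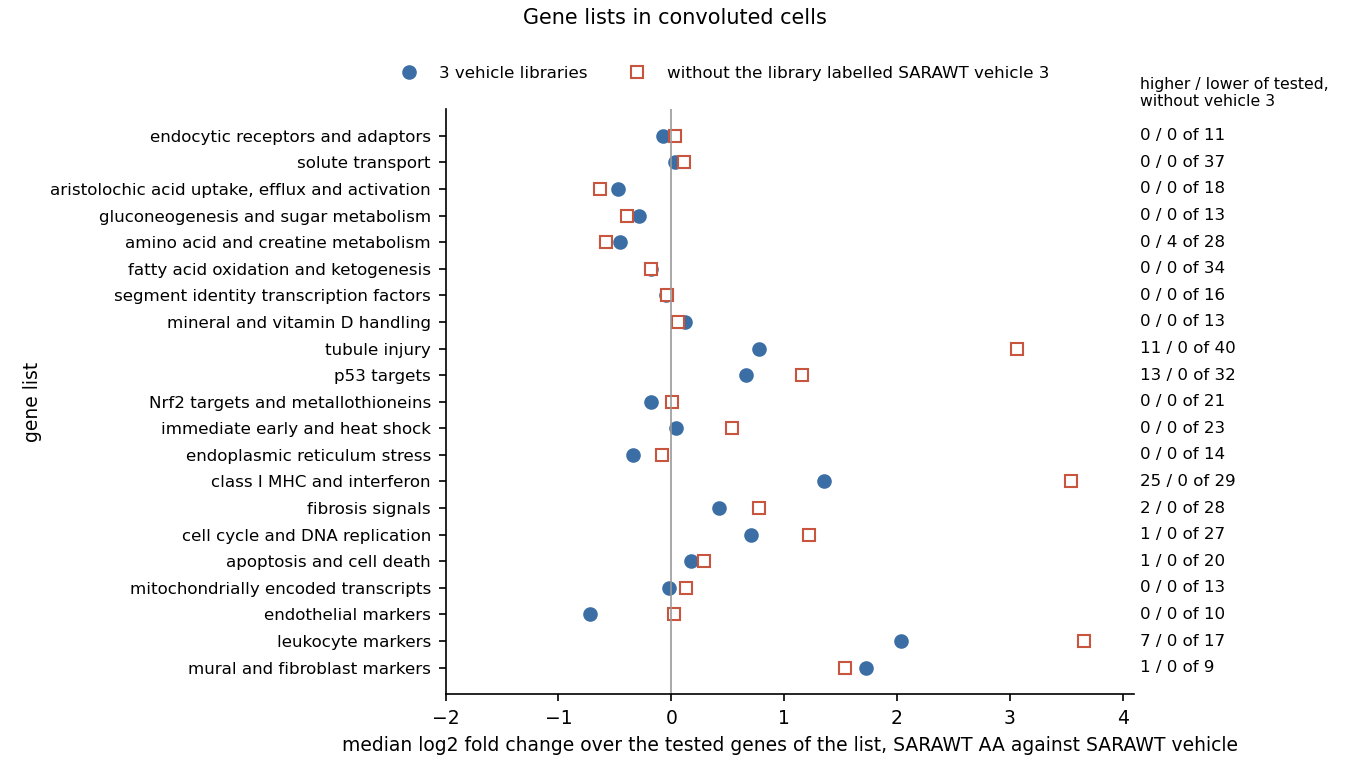
Median log2 fold change of the tested genes of each list, SARAWT AA against SARAWT vehicle, with all 3 vehicle libraries (circles) and without the library labelled SARAWT vehicle 3 (squares), with the counts called at the right. The lists of injury, p53 targets, MHC and interferon genes and leukocyte markers shift to the right without that library, and the lists of transport and metabolism stay near 0 or below it.

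Among other genes of the named rule, Ephx1, the microsomal epoxide hydrolase, stood at 0.566, 0.947 and 33.4 CPM in SARAWT vehicle 1 to 3 and 28.8, 44.9 and 58.0 CPM in SARAWT AA 1 to 3. Ubd, an interferon-raised ubiquitin-like protein, stood at 1.54, 0.242 and 62.4 CPM against 97.2, 27.6 and 164 CPM. Serpina10 and Aoc1 showed the same order, as did F830016B08Rik, whose level in SARAWT vehicle 1 and 2 rested on 1 and 2 UMIs. Against 1.85% of all genes higher in that fit, 2 of 28 fibrosis signal genes tested passed and both were higher. They were Col18a1, a basement membrane collagen, at 31.9, 32.2 and 86.9 CPM against 99.2, 85.3 and 108 CPM, and Tgfbr2, the type II receptor of TGF-beta, at 18.2, 15.4 and 52.2 CPM against 48.4, 36.9 and 60.9 CPM. Of 27 cell cycle genes, 1 was higher, which is near the 1.85% of all genes, and 0 without SARAWT AA 1 as well. The median of the list was 1.22, with 24 of 27 positive and 15 higher at an unadjusted p under 0.05, against 20.7% of all genes in either direction. The called gene was the replication clamp Pcna, at 5.77, 4.62 and 8.30 CPM against 11.6, 11.5 and 14.5 CPM.

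The genes that were lower were fewer, at 46, and 4 of them were on the list of amino acid and creatine metabolism. Of its 28 genes, edgeR called 0 as labelled, where 1 had a positive fold and the median log2 was −0.46. In that fit 11 were lower and 0 higher at an unadjusted p under 0.05, against 7.44% of all genes in either direction. Without the library labelled SARAWT vehicle 3, 4 of the 28 passed as lower and 0 as higher, against 0.349% of all genes lower. The list had a median log2 fold change of −0.58 in that fit. Without SARAWT AA 1 as well, 2 were lower, against 0.0839% of all genes. Aadat, which transaminates kynurenine, stood at 110, 105 and 32.6 CPM in SARAWT vehicle 1 to 3 and 28.0, 37.2 and 29.5 CPM in SARAWT AA 1 to 3. Acy1, an aminoacylase, stood at 73.1, 57.4 and 15.5 CPM against 17, 18.1 and 10.5 CPM. Both had the third vehicle library close to AA, and their log2 fold changes without it were −1.79 ± 0.21 and −2.12 ± 0.27 (SE, edgeR adjusted p 0.00797 and 0.0114). Gatm, which makes the creatine precursor, overlapped at 2269.5, 3006 and 2024 CPM against 2058, 2756 and 1595 CPM. Cdo1, a cysteine dioxygenase outside that list, did not overlap at 21.4, 22.8 and 7.76 CPM against 4.05, 4.1 and 2.38 CPM, as 3% of all genes did in this direction, and it was called by DESeq2 as labelled.

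Another gene that was lower was Hdc (ENSMUSG00000027360, chromosome 2 from 126593667 to 126619299), histidine decarboxylase, the enzyme that makes histamine. It stood at 263 and 565 CPM in SARAWT vehicle 1 and 2, from 5098 and 28004 UMIs, and at 1.08 CPM in the library labelled SARAWT vehicle 3. SARAWT AA 1 to 3 held 0.579, 0.234 and 0.476 CPM, from 3, 2 and 2 UMIs. SARATg vehicle 1 and 2 held 0.548 and 1.36 CPM, from 4 and 7 UMIs, and SARATg AA 1 held 167 CPM. Hdc was thus high in 3 libraries and near absent in 6, and the 3 high libraries include both female ones and 1 male one. In SARAWT it was lower with AA by a log2 of −9.43 ± 2.01 as labelled (SE, edgeR adjusted p = 0.62) and −10.0 ± 0.51 without the library labelled SARAWT vehicle 3 (SE, adjusted p = 0.000567), and DESeq2 called it as labelled. Lpl, lipoprotein lipase, stood at 412, 117 and 9.26 CPM in SARAWT vehicle 1 to 3, 4.25, 14.6 and 3.09 CPM in SARAWT AA 1 to 3, 189 and 256 CPM in SARATg vehicle and 12.8 CPM in SARATg AA. Igkc and Jchain, immunoglobulin genes of plasma cells, were also lower, at 1255, 398 and 76.2 CPM against 116, 55.4 and 152 CPM for Igkc. With the libraries as labelled, their direction turned when cells with markers of other types were left out, to a log2 of 0.84 for Igkc and 0.42 for Jchain. Without SARAWT AA 1 as well as the library labelled SARAWT vehicle 3, Igkc, Jchain and Lpl no longer passed, nor did Mdm2, Aoc1 and Pcna (edgeR adjusted p from 0.0561 for Aoc1 to 0.0786 for Igkc and Pcna). The low UMI counts of Hdc in 6 libraries make its fitted fold a value that depends on the model.

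The third comparison asked which genes differed between the genotypes in vehicle-treated kidneys. Both SARATg vehicle libraries were male, whereas SARAWT vehicle 2 was female. The part of sex in the fits without the library labelled SARAWT vehicle 3 was not tested. SARATg vehicle against SARAWT vehicle gave 0 of 13287 genes in edgeR (0%), with 585 at an unadjusted p under 0.05 (4.4%), and 16 in DESeq2 (0.12%). Without the library labelled SARAWT vehicle 3, Hdc was the 1 gene that passed (0.0076%), and 3 passed without SARAWT AA 1 as well (0.0229%). It was lower in SARATg by a log2 of −8.75 ± 0.56 (SE, edgeR adjusted p = 0.00343), with 0.548 and 1.36 CPM against 263 and 565 CPM in SARAWT vehicle 1 and 2. Cdkn1a, at 11.9 and 30 CPM in SARATg vehicle, lay above SARAWT vehicle 1 and 2 and below the third. Cd74, at 150 and 329 CPM, was placed in the same way. Of the 29 antigen presentation and interferon genes 0 passed in either fit, but their median log2 fold change turned from −0.71 as labelled to 1.75 without the library labelled SARAWT vehicle 3, where all 29 were positive and 18 were higher at an unadjusted p under 0.05, as 7.59% of all genes were in either direction. In the same fit the leukocyte markers had 17 of 17 positive, 12 higher at an unadjusted p under 0.05 and a median of 2.52, and their part in this was not tested. The median of the injury genes turned in the same way, from a value of −0.40 to 1.30, with 35 of 40 positive and 15 higher at an unadjusted p under 0.05. In edgeR none of the lists of transport genes, p53 targets or injury genes had a member that passed in either fit, and DESeq2 called Slc6a18 of the transport genes as labelled. Of 10 endothelial markers, 8 as labelled and 10 without the library labelled SARAWT vehicle 3 were higher in SARATg at an unadjusted p under 0.05, against 4.4% and 7.59% of all genes in either direction, and 0 passed the threshold in either fit. Their median log2 fold change was 2.50 as labelled and 3.17 without that library. Their part in the other differences was not tested. Of the mitochondrially encoded transcripts, whose share the rule bounds, 13 of 13 had a positive fold in both fits. Their medians were 0.40 as labelled and 0.46 without that library, a description only.

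The fourth comparison set SARATg AA 1 against the 2 SARATg vehicle libraries. The lone AA library is assumed to vary like the others, and it is a library that went against its label and that came from a female. In edgeR 0 of 13287 genes passed (0%), with 770 at an unadjusted p under 0.05 (5.8%), and DESeq2 called 12 (0.0903%). Cdkn1a stood at 287 CPM against 11.9 and 30 CPM, Phlda3 at 69.3 CPM against 1.64 and 1.56 CPM, and Gdf15 at 391 CPM against 31.9 and 74.8 CPM. All 3 p53 targets were above both vehicle libraries, as 52.4% of all genes were. Their level in SARATg AA 1 lay within or above the SARAWT AA range. Of all 32 p53 targets tested, 27 had a positive fold as labelled, with a median log2 of 1.35 against −0.0056 for all genes. Cd74 stood at 367 CPM against 150 and 329 CPM, and Psmb8 at 50.9 CPM against 14.5 and 12.3 CPM. Both genes thus lay above both SARATg vehicle libraries and below all SARAWT AA libraries. Of the 29 antigen presentation and interferon genes, 25 had a positive fold as labelled, with a median log2 of 0.80 against −0.0056 for all genes. Of 13 mitochondrially encoded transcripts 0 had a positive fold as labelled, with a median log2 of −0.61, again a description. Without the library labelled SARAWT vehicle 3, 3 genes passed (0.0228%), all higher, and 7 passed without SARAWT AA 1 as well (0.0534%). They were Hdc, Ephx1 at 63.8 CPM against 1.64 and 2.53 CPM, and Ces2e, a carboxylesterase, at 53.7 CPM against 2.47 and 2.34 CPM.

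The difference of the AA effect between the genotypes, SARATg minus SARAWT, was tested as an interaction. In edgeR 0 of 13287 genes passed (0%), with 426 at an unadjusted p under 0.05 (3.21%), and DESeq2 called 5 (0.0376%). Without the library labelled SARAWT vehicle 3 it was 1 gene (0.0076%), and without SARAWT AA 1 as well 2 genes (0.0152%). Hdc had a log2 of 16.7 ± 3.16 (SE, edgeR adjusted p = 1) as labelled and 17.3 (edgeR adjusted p = 0.000237) without the library labelled SARAWT vehicle 3. Slc16a1, the monocarboxylate transporter MCT1, stood at 98.6, 114 and 144 CPM in SARAWT AA 1 to 3 and 72.4, 57.8 and 64.2 CPM in SARAWT vehicle 1 to 3. In SARATg the order was the opposite, with 39.3 CPM in the lone AA library, from a female, and 83.5 and 85.6 CPM in the male vehicle libraries. Its difference was −2.11 ± 0.34 (log2, SE, edgeR adjusted p = 1), and DESeq2 called it.

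The last comparison set convoluted cells beside the S3 segment. Levels of the segments are a description, because the rule parted them. In SARAWT vehicle 1, SARATg vehicle 1 and SARATg vehicle 2, which held most S3 cells, Gatm stood at 2269.5, 2972 and 921 CPM in convoluted cells and 105, 144 and 16.2 CPM in S3. Slc34a3, another phosphate cotransporter, stood at 73.4, 94.3 and 31.4 CPM against 1.34, 2.99 and 0.293 CPM. Slc6a19 was also higher in convoluted cells, at 299, 326 and 253 CPM against 27.7, 43.6 and 29.3 CPM. Toward S3 lay Napsa, an aspartic protease, at 246, 137 and 172 CPM in convoluted cells against 1234, 1191 and 1322 CPM, and Slco1a1, an organic anion transporter, at 53.4, 20.6 and 13.3 CPM against 608, 471 and 134 CPM.

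Whether AA acted differently on the segments was tested within the SARAWT libraries, with library as a block. In edgeR 0 of 11727 genes passed (0%), with 747 at an unadjusted p under 0.05 (6.37%). Without the library labelled SARAWT vehicle 3, 381 of 12167 genes passed (3.13%), 193 with a more positive AA effect in convoluted cells (1.59%) and 188 with a more negative one (1.55%). Cdkn1a was among the former, with a difference of 2.15 ± 0.50 (log2, SE, edgeR adjusted p = 0.033). In S3 it stood at 25.4, 5.05 and 217 CPM in SARAWT vehicle 1 to 3 and 187, 125 and 204 CPM in SARAWT AA 1 to 3. Rule genes in the S3 cells are given as a description. Cyp7b1, a rule gene of S3, stood there at 1.24 and 4.21 CPM in SARAWT vehicle 1 and 2 but at 564 CPM in the library labelled SARAWT vehicle 3 and 810, 688 and 275 CPM in SARAWT AA 1 to 3. Slc34a1 stood there at 2350.3 and 1895 CPM, then 139 CPM, then 101, 317 and 97.6 CPM. The part of these differences between libraries in the test of the segments was not tested. SARAWT AA 3 held only 34 S3 cells, and the female SARAWT vehicle 2 held 95.

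Genes known to differ by sex in the mouse proximal tubule followed the sex of the libraries for some members and not for others. Cyp2j13, a male-high cytochrome, stood at 0.544 and 1.88 CPM in the female SARAWT vehicle 2 and SARATg AA 1 and at 63.2 to 167 CPM in the 7 male libraries. Prlr, the prolactin receptor and female-high, stood at 224 and 69.8 CPM in the females and 4.39 to 30.6 CPM in the males. Both genes split the libraries by sex without overlap. Kap, an androgen-regulated gene, did not: it stood at 119 and 0.940 CPM in the females and at 16956, 895, 151, 812, 50.4, 8407 and 3354 CPM in the males. The male libraries with AA and the library labelled SARAWT vehicle 3 were all lower than the other male vehicle libraries. With sex as a covariate and all 9 libraries, 0 genes passed in edgeR for AA against vehicle in SARAWT, and 518 had an unadjusted p under 0.05. Without the covariate that fit also called 0, with 988 at that level. It therefore does not bear on the genes called without the library labelled SARAWT vehicle 3. In that latter fit, SARAWT vehicle 1 was male, SARAWT vehicle 2 female and the SARAWT AA libraries male. The part of sex in its calls was not tested.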

How the data were processed

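The deposited UMI counts were not normalized. The submitters' processing notes name Cell Ranger 3.0.2, mm10 and Seurat 2.3.4, and the files held called cells only. Total UMIs per kidney library were 28660151 to 137093834. The kidney libraries are not part of the study's published skin comparisons. UMIs of the class were summed per library and tested with edgeR 4.0.16 in R 4.3.3 (filterByExpr, TMM, quasi-likelihood, two-sided, Benjamini-Hochberg, threshold 0.05) in 1 fit of 4 groups, with DESeq2 1.42.0 as an alternative. Log2 fold changes are fitted on this scale, and CPM are per 1000000 class UMIs. The SE given with an edgeR fold is the absolute fold divided by the square root of the test's F statistic, not a fitted standard error. Shares were compared with exact permutation tests. Members and gene lists were chosen with earlier results of these data known. Named genes are rule genes, Zfyve9, Pdgfrb, up to 12 per direction past the threshold without overlap and with at least 20 CPM, and, per list, up to 5 that passed and the first 2 tested; others were chosen after their values were seen. In a test on simulated counts, 200 of 13287 genes were given a log2 change of 2, and the edgeR fit recovered 60.5% for AA against vehicle in SARAWT, 55% for the genotypes, 11.5% for AA in SARATg and 0% for the difference between genotypes. These counts were simulated from the mean of each gene over all 9 libraries, so their spread held the group differences. Every simulated library followed its label, so the rates do not measure the power of the fit to libraries that went against theirs. Positions are from GENCODE vM21. Python 3.11.15, numpy 2.4.6, pandas 2.3.3, scipy 1.17.1 and matplotlib 3.10.9 were used.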

Additional observations from a re-analysis of the deposited data

How the results depend on the processing

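Leaving out each library in turn gave 0 to 290 genes for AA against vehicle in SARAWT, 0 to 1 for the genotypes under vehicle, 0 to 11 for AA in SARATg, 0 to 5 for the difference between genotypes and 0 to 381 for that between segments. The upper ends came without SARAWT vehicle 3, or for AA in SARATg (11) and the difference between genotypes (5) without SARAWT vehicle 2. In the same order, DESeq2 called 16, 16, 12 and 5 genes, and leaving out both SARAWT vehicle 3 and SARAWT AA 1, added after the data were seen, gave 162, 3, 7 and 2. The difference between segments gave 313 genes without a filter on low counts and 7 with cells thinned to 1000 UMIs. The share of convoluted cells differed by −11.1 percentage points with AA and by 6.05 among Ptprc-negative cells, and leaving out single libraries gave −17.1 to −2.18. The share in SARATg differed by −15.2, with −21.3 to −6.35. All other settings kept a count of 0 or the direction of a share. The replicate block kept 0 calls in the 4 fits of groups (the test of the segments had the library as its block throughout), with 1497 genes at an unadjusted p under 0.05 for AA in SARAWT. Deviations of log2 CPM from the group mean were correlated between SARAWT vehicle and SARAWT AA libraries. Same-numbered pairs gave −0.177, 0.276 and 0.163, and other pairs gave −0.434 to 0.302. These values overlap, and so few pairs cannot decide whether the numbers pair the libraries. All kidney headers name 1 software version, so that alternative gave no value.

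Single genes that turned direction for AA in SARAWT follow (log2 fold change), first with the range over single libraries left out. Trp53inp1 gave −0.014 to 2.50, and −0.014 with sex as a covariate and −0.0024 in males only. Cubn gave −0.19 to 0.043, and 0.043 with sex and 0.059 in males. Slc6a19 gave −0.24 to 0.34, and −0.24 with sex, −0.22 in males, −0.0086 without a filter and −0.013 with stricter cells. Trp53 gave −0.012 to 0.31, and −0.36 when thinned and −0.053 without both libraries. Cxcl1 gave −4.08 to 6.02, and 3.22 with the block and 3.35 without both. The rule gene Slc34a1, a description only, gave −0.21 to 0.10, and 0.00071 with at least 2 segment UMIs, 0.0030 without cells holding other markers and 0.089 without both. Slc22a6 gave −1.10 to 0.050. Zfyve9 gave −0.54 to 2.48, and −0.69 without both. Without cells holding other markers, Jchain gave 0.42 and Igkc 0.84. For the genotypes, Cdkn1a gave −3.34 to 1.92, and 0.94 with the block and 1.92 without both, and Cd74 gave −2.25 to 2.47, and 1.73 with the block and 2.47 without both. The cause was not tested.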

Other observations

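Vitamin D and phosphate genes gave 0 of 13 past the threshold for AA in SARAWT, near the share over all genes (0% as labelled and 2.2% without the library labelled SARAWT vehicle 3). Cyp24a1, which breaks down active vitamin D, stood at 44.4, 35.2 and 259 CPM in SARAWT vehicle 1 to 3, 239, 152 and 405 CPM in SARAWT AA 1 to 3, 8.09 and 80.7 CPM in SARATg vehicle and 231 CPM in SARATg AA. SARAWT vehicle 1 and 2 lay below every AA library, and the library labelled SARAWT vehicle 3 lay within their range. Vdr, its receptor, ranged from 92.1 to 172 CPM.

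Of 21 Nrf2 targets and metallothioneins 0 passed, which is also near that share. Mt1, a metallothionein, stood at 24.4, 53.7 and 442 CPM in SARAWT vehicle 1 to 3 and 79.9, 31.4 and 45.2 CPM in SARAWT AA 1 to 3, so the library labelled SARAWT vehicle 3 lay above all AA libraries for this gene. Cxcl1, a neutrophil chemokine, had the same placement at 0.824, 0.161 and 216 CPM against 78.7, 2.22 and 7.61 CPM.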
